A study of Rattus norvegicus with 24 samples.

Results

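Transcript levels of 9 hepatocyte drug and anion transporters were read in livers of rats that had inhaled PCB 52 and in livers of sham rats of both sexes. The 9 genes were listed by name, with earlier results of these data known. They were Slc22a8, Ust5r, Slco1a1, Slco1a4, Slco1b2, Abcc2, Abcc3, Abcb1a and Abcb1b. Their Entrez identifiers were looked up in both deposited count tables, and 9 of 9 were present among 15319 genes. The animals were 24 Sprague-Dawley rats, an outbred stock, with 1 bulk RNA-seq library per liver and 6 animals in each group. The groups were PCB 52 females, sham females, PCB 52 males and sham males. PCB 52, a polychlorinated biphenyl, was carried to the nose of each exposed animal in air drawn over coated glass beads at 12 L per minute. Animals arrived at 28 days of age and had 8 days of acclimation. Exposure lasted 4 hours a day for 28 days and started when females were 42 and males 39 days old. The same hours, days and airflow are listed for the sham animals. The labels give no airborne concentration, so exposed and sham are the only levels described. All 4 groups were the same outbred stock from the same supplier, and the labels name no transgene and no second agent.

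Hepatocytes take up organic anions, bile acids, thyroid hormones and many drugs from blood through carriers of the SLC22 and OATP families on their sinusoidal membrane. Inside the cell such compounds are often joined to glucuronate, sulfate or glutathione, and ATP-driven pumps of the ABC families then move them on. Pumps of the canalicular membrane send them to bile, and pumps of the basolateral membrane return them to blood. In rodents several of these genes differ between the sexes under the pattern of growth hormone release, and several respond to the nuclear receptors CAR and PXR, which xenobiotics can activate.

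Library totals ran from 6994832 to 9185511 counts. Levels are given below as CPM, normalised library-scaled counts (1 CPM is 1 count in 1e+06), and as mean ± SD with n = 6. The sex labels were checked on the female-predominant Cyp2c12 and the male-predominant Cyp2c11. Cyp2c12 was between 6232 and 10763 CPM in PCB 52 and sham females and between 28.7 and 141 CPM in PCB 52 and sham males. Cyp2c11 was at most 9.66 CPM in females and at least 4584 CPM in males. Every library carried hepatocyte markers at a summed 101337 to 153247 CPM over 5 genes. Bile duct markers summed to 10.3 to 25.4 CPM over 5 genes, and no marker of bile duct, endothelial, Kupffer, stellate or lymphocyte lists was without counts in any group. In bulk liver, fewer cells of a type and less RNA per cell cannot be told apart. Animals 13 to 16, which were 2 exposed males and 2 exposed females, had the highest scores on the leading component of variation within groups. With only the mean of each sex removed, their scores lay between 8.31 and 12.7, against −7.12 to 6.98 in the 12 sham animals. With each group's mean removed they did not stand apart. Animals 13 to 16 then scored 7.20, 8.18, 6.19 and 10.1, and sham animals 11 and 12 scored 9.10 and 7.88.

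**Figure D1:**
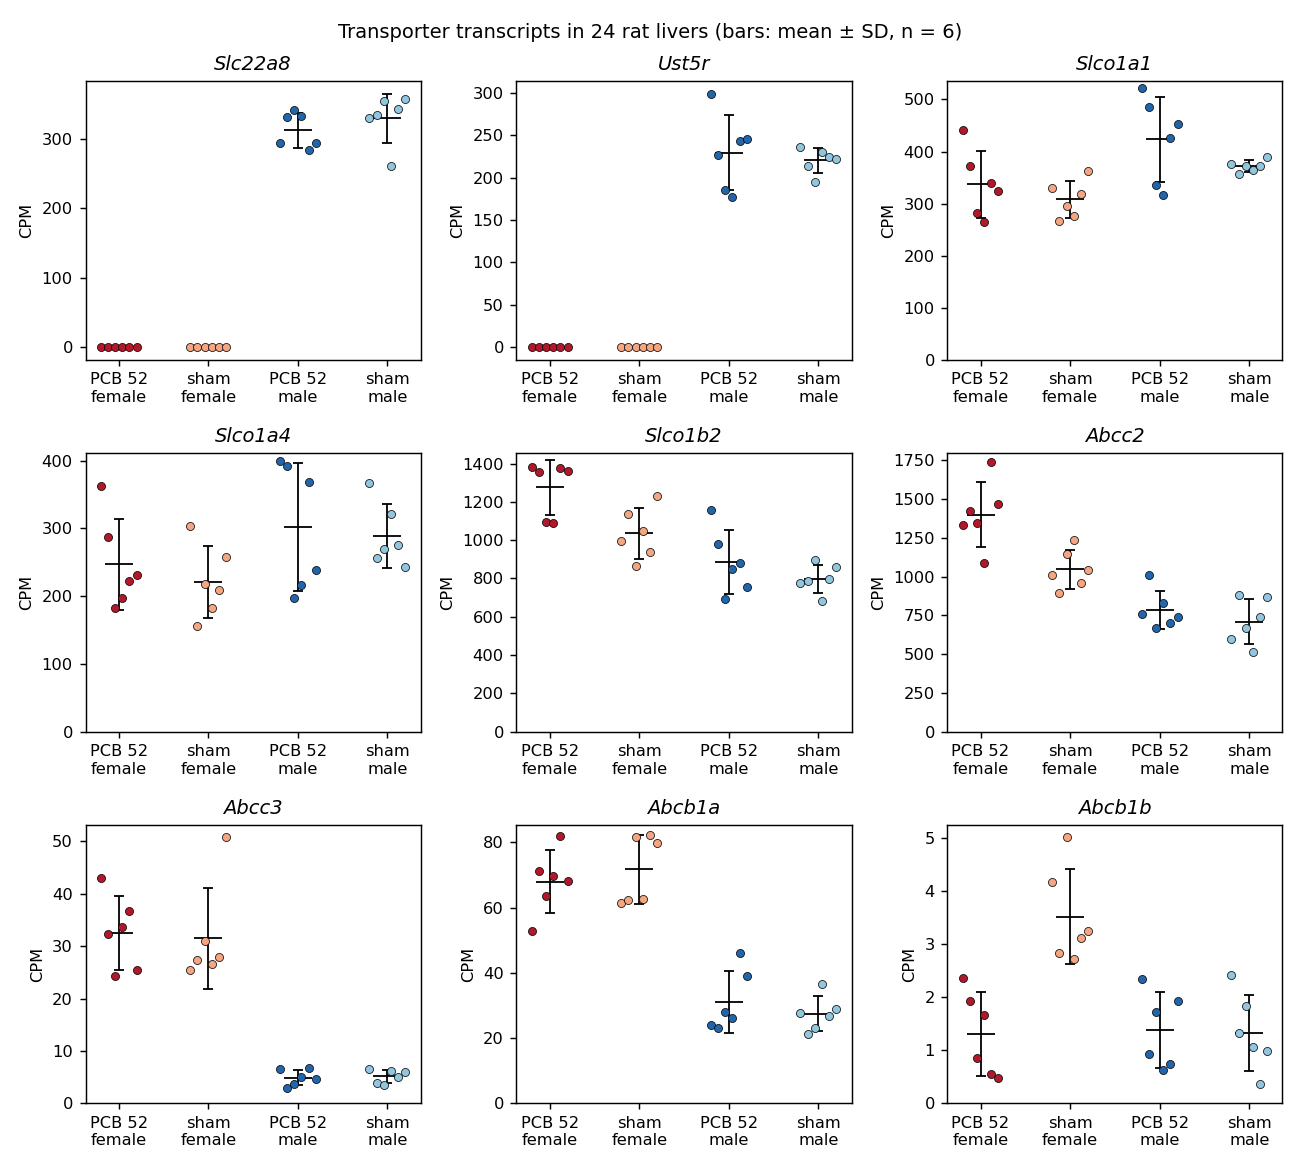
CPM of the 9 transporters (one panel each, linear axes) in PCB 52 females, sham females, PCB 52 males and sham males; points are animals and bars are mean ± SD (n = 6). Slc22a8 and Ust5r lie near 0 in all females, Abcc3 and Abcb1a are higher in females than in males without overlap, and Abcb1b separates PCB 52 females (at most 2.35 CPM) from sham females (at least 2.72 CPM).

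The upstream sequences of Ust5r and Slco1b2 are shown first because they set a transporter read almost entirely in males beside one that was higher in females. RefSeq promoters of the GRCr8 build were matched for 8 of the 9 genes, and Abcc3 was not matched. The 250 bases before the annotated start were searched on both strands for short motifs, and the shares below are of 33469 rat promoters of the same length. The letters TATAAA of the TATA box stood in 2 of the 8 windows, those of Ust5r and Slco1b2, against 12.9% of all promoters. Both matches lay nearer the far end of the window than the annotated start, and the search did not take position into account. Capitals mark TATAAA or its reverse complement TTTATA. The windows are chr1:214715535-214715784 (minus strand) for Ust5r and chr4:176282334-176282583 (plus strand) for Slco1b2.
Ust5r: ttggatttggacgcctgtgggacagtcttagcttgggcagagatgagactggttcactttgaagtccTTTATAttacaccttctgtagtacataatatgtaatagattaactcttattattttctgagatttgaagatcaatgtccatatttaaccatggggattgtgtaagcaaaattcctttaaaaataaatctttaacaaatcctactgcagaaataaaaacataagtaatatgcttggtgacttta
Slco1b2: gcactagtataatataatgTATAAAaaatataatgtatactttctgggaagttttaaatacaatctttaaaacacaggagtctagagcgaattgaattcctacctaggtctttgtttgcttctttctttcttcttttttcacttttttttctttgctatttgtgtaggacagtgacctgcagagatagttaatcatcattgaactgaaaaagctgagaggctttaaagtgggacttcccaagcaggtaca
These letters were thus found upstream of genes whose sex differences ran in opposite directions. Of the other letters searched, TTCNNNGAA, bound by STAT5, stood in the Slco1b2 window alone and in 7.67% of all promoters. CCAAT stood in the Slco1a1, Slco1a4, Abcc2 and Abcb1b windows and in 34.0% of all promoters. The direct repeat bound by CAR, the antioxidant element TGACNNNGC and the dioxin core GCGTG had no match in the 8 windows, against 0.00299%, 10.1% and 25.9% of all promoters. A match is a string of letters in a window and was not tested as a binding site.

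Sex separated most of the transporters. In PCB 52 animals 7 of the 9 were called at an adjusted p under 0.05, against 19.9% of all 10535 genes tested. Of these 4 were higher in females, against 10.1% of all genes, and 3 were lower, against 9.73%. In sham animals 7 of the 9 were called, against 20.3% of all genes; 5 were higher, against 10.7%, and 2 were lower, against 9.62%. Called in both comparisons were Slc22a8 and Ust5r, lower in females, and Slco1b2, Abcc2, Abcc3 and Abcb1a, higher in females. Slco1a1 was called lower in the PCB 52 animals and Abcb1b higher in the sham animals; the difference between the 2 comparisons was −0.06 ± 0.16 for Slco1a1 and −1.47 ± 0.54 for Abcb1b on the log2 scale, and neither passed the adjustment (edgeR adjusted p = 1.00 each). Female and male values did not overlap for 5 of the 9 in PCB 52 animals and for 6 of the 9 in sham animals, against 9.81% and 11.5% of all genes. The median log2 fold change over the 9 was −0.07 in PCB 52 animals and 0.38 in sham animals, with all-gene medians of −0.0044 and −0.0032. These 2 comparisons share no animals. The 9 were chosen with earlier results of these data known, so their share beside that of all genes is a description and no test. Sex, count table and age at first exposure coincide here and cannot be told apart. Kupffer cell markers summed to medians of 408 CPM in PCB 52 females and 344 CPM in PCB 52 males, and to 409 CPM in sham females and 334.04 CPM in sham males. Of these 6 markers 3 were called higher in PCB 52 females and 4 in sham females; their part in the transporter values was not tested.

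Slc22a8 encodes OAT3, an organic anion exchanger best known from the kidney. It was read almost only in males. PCB 52 females gave 2 counts in all, both in 1 animal, and PCB 52 males gave 14527, between 283.0 and 340.6 CPM with a median of 312 CPM. Sham females gave 1 count and sham males 15358, between 261 and 356 CPM with a median of 338.1 CPM. No female value came near a male value. The female over male ratio of library-scaled counts was 1.33e-04 in PCB 52 animals, with a 95% exact interval of 1.61e-05 to 4.80e-04. In sham animals it was 6.03e-05, with an interval of 1.53e-06 to 3.36e-04; these intervals cover counting error only. Adjusted p from the edgeR quasi-likelihood test was 1.68e-26 in PCB 52 animals and 1.11e-26 in sham animals, the smallest of any gene in both comparisons.

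Ust5r, a rat gene of the same family that lies near Slc22a8 on chromosome 1, had the same pattern. It gave 7 counts over 4 of the 6 PCB 52 females and 10700 counts in PCB 52 males, where it ran between 178 and 299 CPM with a median of 235 CPM. Sham females gave 5 counts over 3 animals and sham males 10281, between 195 and 236 CPM with a median of 223 CPM. The female over male ratio was 6.31e-04 (95% exact interval 2.54e-04 to 0.00130) in PCB 52 animals and 4.50e-04 (1.46e-04 to 0.00105) in sham animals. By edgeR the adjusted p was 5.91e-24 in PCB 52 animals and 5.39e-24 in sham animals. Slc22a25, a related carrier annotated between these genes in GRCr8 and overlapping the span of Slc22a8 on the opposite strand, gave 0 counts in PCB 52 females and 160 in PCB 52 males. Sham females gave 1 count and sham males 147. The counting strand is not given in the sources used here, so reads from overlapping stretches of Slc22a8 and Slc22a25 could not be assigned by strand.

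Among the OATP carriers of the Slco genes, Slco1b2, the rodent counterpart of the human liver OATP1B carriers, was higher in females. It ran between 1088 and 1383 CPM (median 1359) in PCB 52 females and between 694 and 1160 CPM (median 865) in PCB 52 males. Sham females ran between 865 and 1233 CPM (median 1021) and sham males between 682 and 896 CPM (median 791). The sexes overlapped at their edges in both comparisons, although 6 of 6 females exceeded the male mean in each. The log2 fold change, female over male, was 0.53 ± 0.11 (SE) in PCB 52 animals (edgeR adjusted p = 4.97e-04) and 0.38 ± 0.11 in sham animals (adjusted p = 0.0116).

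Slco1a1 and Slco1a4, which encode the broad-substrate carriers Oatp1a1 and Oatp1a4, had lower means in females. Slco1a1 ran between 265 and 441 CPM (median 331.7) in PCB 52 females and between 316 and 522 CPM (median 440) in PCB 52 males. In sham females it ran between 266 and 362 CPM (median 307), and in sham males between 357 and 390 CPM (median 373). Female and male ranges overlapped, but all 6 sham females lay below the sham male mean. The log2 difference was −0.33 ± 0.12 in PCB 52 animals (edgeR adjusted p = 0.0434) and −0.27 ± 0.12 in sham animals (adjusted p = 0.102). The call in PCB 52 animals was lost in 8 of 12 fits that left out a library, with adjusted p between 0.0662 and 0.130, and with limma-voom (0.0509). Those libraries were PCB 52 females 3, 4, 5 and 6 and PCB 52 males 1, 2, 5 and 6. The sham difference passed with 1 surrogate variable (adjusted p = 0.00880), with limma-voom (0.0247) and without animals 13 to 16 (0.0315). It also passed with a replicate block of consecutive animal numbers, which the labels do not give (edgeR adjusted p = 0.00243). Sham males were the tightest group, with a coefficient of variation of 2.98%, against 19.4% in PCB 52 males.

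Slco1a4 ran between 182 and 363 CPM (median 227) in PCB 52 females and between 198 and 399 CPM (median 304) in PCB 52 males. Sham females ran between 156 and 303 CPM (median 214) and sham males between 242.9 and 367.2 CPM (median 272). The sexes overlapped broadly. The log2 difference was −0.29 ± 0.20 in PCB 52 animals (edgeR adjusted p = 0.352) and −0.39 ± 0.20 in sham animals (adjusted p = 0.196), neither past the threshold. By limma-voom the sham difference was −0.49 with an adjusted p of 0.0465. With a replicate block of consecutive animal numbers, which the labels do not give, it was −0.40 (edgeR adjusted p = 0.00832).

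Of the pumps that move conjugates, both were higher in females. Abcc2 encodes Mrp2, the canalicular pump for glucuronide and glutathione conjugates. It ran between 1091 and 1737 CPM (median 1385) in PCB 52 females and between 666 and 1008 CPM (median 749) in PCB 52 males. Sham females ran between 893 and 1237 CPM (median 1027) and sham males between 512 and 879 CPM (median 702). The lowest female exceeded the highest male in both comparisons. The log2 fold change was 0.84 ± 0.12 in PCB 52 animals (edgeR adjusted p = 6.85e-06) and 0.56 ± 0.12 in sham animals (adjusted p = 0.00120).

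Abcc3 encodes Mrp3, the basolateral pump that returns conjugates to blood, and it had the widest sex difference of the 7 transporters that averaged above 1 CPM in every group. It ran between 24.2 and 43.1 CPM (median 33.0) in PCB 52 females and between 3.02 and 6.73 CPM (median 4.85) in PCB 52 males. Sham females ran between 25.5 and 50.8 CPM (median 27.6) and sham males between 3.52 and 6.61 CPM (median 5.47). No female value fell within the male range. Means were 6.60 times as high in PCB 52 females as in PCB 52 males and 6.07 times as high in sham females as in sham males. The log2 fold changes were 2.71 ± 0.21 in PCB 52 animals (edgeR adjusted p = 5.17e-11) and 2.60 ± 0.20 in sham animals (adjusted p = 1.10e-10). Mrp3 is also made by bile duct cells; the summed bile duct markers had lower medians in females, 15.8 CPM in PCB 52 females against 18.6 CPM in PCB 52 males and 16.8 CPM in sham females against 21.4 CPM in sham males. Of the 3 such markers tested, Epcam was called lower in females (log2 −0.52 ± 0.15 in PCB 52 animals and −0.78 ± 0.15 in sham animals). Spp1 was 0.70 ± 0.31 in PCB 52 animals and 0.0058 ± 0.32 in sham animals, and Krt19 was −0.05 ± 0.33 in PCB 52 animals and 0.24 ± 0.31 in sham animals, none called. The part of bile duct cells in the Abcc3 values was not tested.

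Abcb1a and Abcb1b encode the rodent P-glycoproteins, canalicular pumps for lipophilic drugs. Abcb1a ran between 52.7 and 82.1 CPM (median 69.0) in PCB 52 females and between 22.999 and 46.2 CPM (median 27.0) in PCB 52 males. Sham females ran between 61.4 and 82.4 CPM (median 71.2) and sham males between 21.4 and 36.7 CPM (median 27.3). The sexes did not overlap. The log2 fold change was 1.13 ± 0.15 in PCB 52 animals (edgeR adjusted p = 2.15e-06) and 1.39 ± 0.15 in sham animals (adjusted p = 8.95e-08). Abcb1a is also made by endothelial cells; 6 of 6 endothelial markers lay above 0 in both comparisons of the sexes and none was called; their part in the Abcb1a values was not tested.

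Abcb1b was scarce. It gave 65 counts in PCB 52 females and 64 in PCB 52 males, and 181 in sham females and 62 in sham males. PCB 52 females ran between 0.473 and 2.35 CPM (median 1.26) and PCB 52 males between 0.635 and 2.34 CPM (median 1.32), with complete overlap. Sham females ran between 2.72 and 5.01 CPM (median 3.18) and sham males between 0.370 and 2.41 CPM (median 1.19), without overlap. The log2 difference was −0.07 ± 0.40 in PCB 52 animals (edgeR adjusted p = 0.932; 95% interval −0.89 to 0.74) and 1.39 ± 0.36 in sham animals (adjusted p = 0.00458). The interval in PCB 52 animals is wide, and its libraries held 4 to 19 counts in females and 5 to 18 in males. Sham females thus had the highest level of the 4 groups, and the other 3 group means lay between 1.30 and 1.38 CPM.

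**Figure D2:**
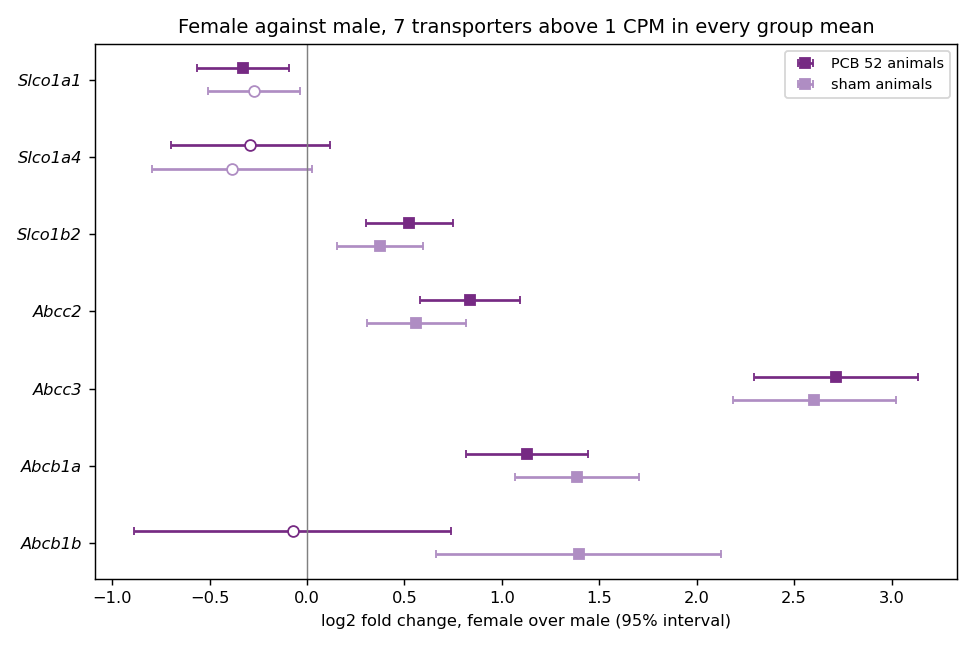
log2 fold change, female over male, with 95% intervals from the edgeR fit of 24 libraries for the 7 transporters that averaged above 1 CPM in every group, in PCB 52 animals (dark) and sham animals (light); filled squares passed an adjusted p of 0.05 and open circles did not. Abcc3 lies farthest to the right at 2.71 in PCB 52 animals and 2.60 in sham animals, and Abcb1b is near 0 in PCB 52 animals but at 1.39 in sham animals.

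Other genes of hepatic transport were read for context, and their counts stand against 10.1% of all genes called higher and 9.73% lower in PCB 52 females, and 10.7% higher and 9.62% lower in sham females. Of 14 other uptake carriers tested of 23 listed, 3 were higher and 2 lower in PCB 52 females than in PCB 52 males, and 1 was higher and 3 lower in sham females than in sham males. Slc22a5, the carnitine carrier OCTN2, was higher in females (log2 1.73 ± 0.22 in PCB 52 animals and 1.76 ± 0.22 in sham animals). Slc29a1, a nucleoside carrier, was lower (−0.68 ± 0.13 in PCB 52 animals and −0.76 ± 0.13 in sham animals). Slc22a25, described by its counts above, was lower in both comparisons. Slc22a13 (2.48 ± 0.58) and Slc22a15 (0.66 ± 0.18) were called higher in PCB 52 females, and Slc22a18 (−0.29 ± 0.09) lower in sham females.

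Of 11 other efflux pumps tested of 14 listed, 3 were higher and 1 lower in females in both comparisons, against 10.1% and 9.73% of all genes in PCB 52 animals and 10.7% and 9.62% in sham animals. The 1 lower pump is near the share of all genes. Abcb4, the phospholipid floppase of bile, was higher (0.76 ± 0.12 in PCB 52 animals and 0.87 ± 0.12 in sham animals). Abcg2, the breast cancer resistance protein, was higher (1.19 ± 0.22 in PCB 52 animals and 1.11 ± 0.22 in sham animals), as was Abcc5 (0.46 ± 0.13 in PCB 52 animals and 0.47 ± 0.14 in sham animals). Abcc6 was lower (−0.26 ± 0.08 in PCB 52 animals and −0.33 ± 0.08 in sham animals).

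Among 18 regulators 3 were higher and 2 lower in PCB 52 females, and 4 higher and 2 lower in sham females. The lower counts are near the 9.73% of all genes in PCB 52 animals and 9.62% in sham animals, and the higher ones stand against 10.1% and 10.7%. Nr1i3, which encodes CAR, was lower in females (−2.57 ± 0.26 in PCB 52 animals and −2.16 ± 0.25 in sham animals). Cux2, a female-predominant repressor, was higher (6.02 ± 0.44 in PCB 52 animals and 6.15 ± 0.44 in sham animals). The growth hormone receptor gene Ghr (0.47 ± 0.10 in PCB 52 animals and 0.37 ± 0.10 in sham animals) and Ahr (0.67 ± 0.22 in PCB 52 animals and 0.72 ± 0.22 in sham animals) were higher. Ppara was lower in PCB 52 females (−0.62 ± 0.19). In sham females Nr1i2, which encodes PXR, was higher (0.37 ± 0.12) and Stat5a lower (−0.40 ± 0.13). Of 5 membrane anchors, Pdzk1, the scaffold that binds Oatp1a1, was higher in females (0.61 ± 0.08 in PCB 52 animals and 0.63 ± 0.08 in sham animals), and Nherf1 was lower in PCB 52 females (−0.38 ± 0.13). Of 17 xenobiotic enzymes 2 were higher and 7 lower in females in both comparisons. The higher count is near the 10.1% of all genes in PCB 52 animals and 10.7% in sham animals, and the lower one stands against 9.73% and 9.62%. Nqo1 (1.67 ± 0.14 in PCB 52 animals and 1.56 ± 0.14 in sham animals) and Cyp3a9 (2.80 ± 0.29 in PCB 52 animals and 2.73 ± 0.29 in sham animals) were higher. Cyp3a2, Cyp3a18, Ugt1a6 and Cyp2b1 were lower, with Cyp3a18 at −3.97 ± 0.23 in PCB 52 animals and −3.39 ± 0.22 in sham animals. Reads of Cyp2b1 may be shared with near-identical family members, so its value is uncertain. All calls in these lists are edgeR adjusted p-values under 0.05 over all genes.

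In females, inhaled PCB 52 moved no transporter past the threshold. Of the 7 that passed the low-count filter 0 were called, as were 0.0% of the 10251 genes tested; 3 of the 7 and 1021 of all genes had an unadjusted p under 0.05 by edgeR. DESeq2 called 15 genes and limma-voom 1 gene in this comparison, none of them a transporter described here. The median log2 fold change over the 7 was 0.13, and over all genes 0.0032. Slc22a8 and Ust5r, with 2 and 7 counts in PCB 52 females against 1 and 5 in sham females, did not pass the filter. At a floor of 3 counts per group, which is 0.0610 CPM in PCB 52 females and 0.0593 CPM in sham females, a difference in Slc22a8 was not detectable at this depth.

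Abcb1b had the smallest p of the 7 tested in females. Its counts were 19, 15, 7, 16, 4 and 4 in the PCB 52 females and 36, 23, 44, 23, 25 and 30 in the sham females. Every PCB 52 female had fewer than every sham female. As CPM the means were 1.30 ± 0.786 in PCB 52 females and 3.51 ± 0.894 in sham females; Abcb1b was the only transporter of the 9 whose exposed and sham values did not overlap, against 0.38% of 10535 genes. The ratio of summed, library-scaled counts was 0.369 (95% exact interval 0.274 to 0.493, counting error only). The log2 fold change was −1.42 ± 0.32 with an unadjusted p of 3.04e-04, and it did not pass the adjustment by edgeR (adjusted p = 0.284). Over the alternatives tried the adjusted p ran from 0.0884 to 0.624 and the log2 fold change from −1.94, without animals 13 to 16, to −1.25.

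Abcc2 was 1399.5 ± 210 CPM in PCB 52 females and 1048 ± 125 CPM in sham females, with 6 of 6 exposed females above the sham mean and overlapping ranges. Its log2 fold change was 0.41 ± 0.11 (edgeR adjusted p = 0.330; 0.0549 to 0.960 over the alternatives). Slco1b2 was 1277 ± 143 CPM in PCB 52 females and 1037 ± 134 CPM in sham females, again with 6 of 6 exposed females above the sham mean. Its log2 fold change was 0.30 ± 0.10 (edgeR adjusted p = 0.410). Neither passed the threshold. For the other 4 the 95% intervals of the log2 difference included 0. They ran from −0.12 to 0.37 for Slco1a1, from −0.23 to 0.54 for Slco1a4, from −0.33 to 0.41 for Abcc3 and from −0.31 to 0.15 for Abcb1a. Without animals 13 to 16 the sign turned for Slco1a1 (−0.03), Slco1a4 (−0.09) and Abcc3 (−0.07).

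In males 0 of the 9 were called, and 0.0% of 10180 genes; 0 of the 9 and 585 of all genes had an unadjusted p under 0.05 by edgeR. DESeq2 and limma-voom called none of the 9. No transporter separated the male groups without overlap, against 0.218% of all genes. The median log2 fold change over the 9 was 0.06, and over all genes 0.0034. Slc22a8 was 312 ± 25.1 CPM in PCB 52 males and 329 ± 35.2 CPM in sham males (log2 −0.08 ± 0.08; 95% interval −0.25 to 0.09). Ust5r was 229.7 ± 44.5 CPM in PCB 52 males and 220.5 ± 14.5 CPM in sham males (log2 0.06 ± 0.10; 95% interval −0.16 to 0.27). The interval for Slc22a8 was the narrowest of the 9 in males, and both genes overlapped between the male groups.

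Slco1a1 was 423 ± 82.1 CPM in PCB 52 males and 372 ± 11.1 CPM in sham males (log2 0.18 ± 0.10, edgeR adjusted p = 0.829). Without animals 13 to 16 its log2 value in males was 0.037. Slco1a4 was 302 ± 94.1 CPM in PCB 52 males and 289 ± 46.8 CPM in sham males (log2 0.06 ± 0.19). Slco1b2 was 887 ± 167 CPM in PCB 52 males and 799 ± 74.0 CPM in sham males (log2 0.15 ± 0.11). In each of these carriers the exposed males were the more spread group. Abcc2 was 784 ± 124 CPM in PCB 52 males and 710 ± 148 CPM in sham males (log2 0.14 ± 0.13). Abcc3 was 4.94 ± 1.48 CPM in PCB 52 males and 5.19 ± 1.27 CPM in sham males (log2 −0.07 ± 0.21). Abcb1a was 31.0 ± 9.40 CPM in PCB 52 males and 27.5 ± 5.36 CPM in sham males (log2 0.18 ± 0.18). These pumps overlapped between the groups. Abcb1b was 1.38 ± 0.707 CPM in PCB 52 males and 1.33 ± 0.713 CPM in sham males (log2 0.05 ± 0.40), with a 95% interval of −0.79 to 0.88.

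**Figure D3:**
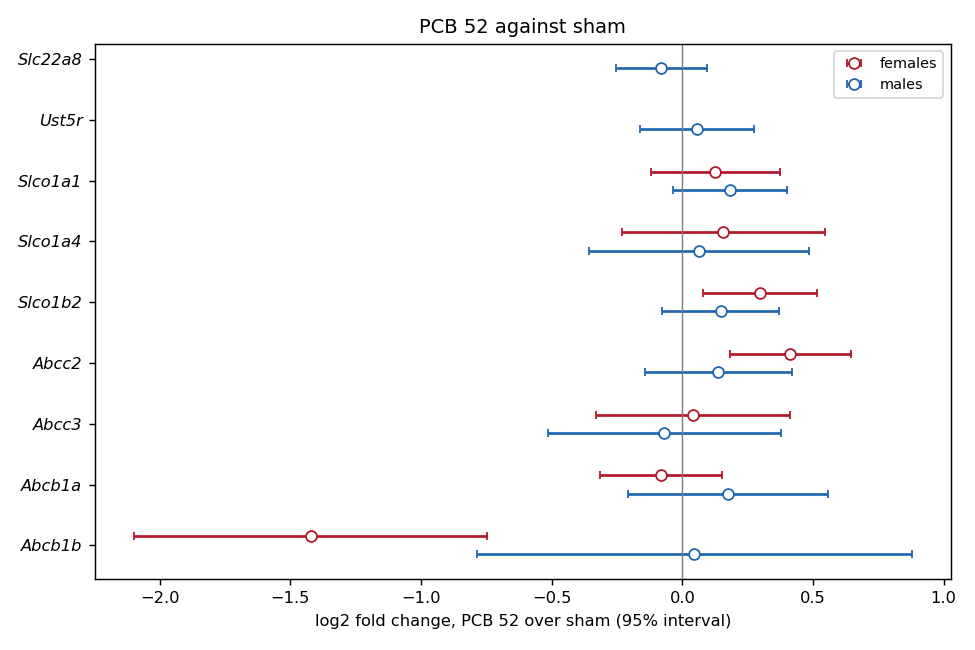
log2 fold change, PCB 52 over sham, with 95% intervals from the within-sex edgeR fits, in females (red) and males (blue); Slc22a8 and Ust5r have no female value. Open circles show that none passed an adjusted p of 0.05; Abcb1b in females lies apart at −1.42, and the other values lie between −0.08 and 0.41.

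The responses of the sexes were compared directly. No transporter passed the adjustment for a difference in its response to PCB 52, and 0.0% of 10535 genes were called; 1 of the 9 and 239 of all genes had an unadjusted p under 0.05 by edgeR. The female response minus the male response was −1.47 ± 0.54 on the log2 scale for Abcb1b (95% interval −2.57 to −0.37, unadjusted p = 0.0107, edgeR adjusted p = 1.00). It was 0.28 ± 0.18 for Abcc2, 0.15 ± 0.15 for Slco1b2 and −0.26 ± 0.22 for Abcb1a. Averaged over both sexes, again 0 of the 9 and 0.0% of 10535 genes were called by edgeR, with 1625 genes at an unadjusted p under 0.05. The averages were 0.28 ± 0.09 for Abcc2 (adjusted p = 0.173), 0.23 ± 0.08 for Slco1b2 (0.188), −0.68 ± 0.27 for Abcb1b (0.239) and 0.16 ± 0.08 for Slco1a1 (0.350). Without animals 13 to 16 they were 0.24 for Abcc2, 0.12 for Slco1b2, −1.01 for Abcb1b and 0.0041 for Slco1a1. DESeq2 called 84 genes and limma-voom 7 genes in the average response, and neither called a transporter of the 9. Both values are left out for Slc22a8 and Ust5r, whose female counts were near 0.

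None of the other transport or metabolism genes listed passed in the exposure comparisons. In females the smallest p-values among other carriers and pumps were for Slc22a13 (log2 1.11 ± 0.40), Slc22a7 (−0.22 ± 0.12), Abcb4 (−0.31 ± 0.11) and the cholesterol exporter gene Abca1 (0.24 ± 0.10). Among regulators they were for Nr1i2 (−0.34 ± 0.10) and Hnf4a (−0.24 ± 0.08), among anchors for Msn (0.26 ± 0.14) and Rdx (0.11 ± 0.09), and among enzymes for Ugt1a6 (0.48 ± 0.12) and Por (−0.45 ± 0.15). Their edgeR adjusted p-values ran from 0.318 to 0.697. In males they were for Slc22a17 (−0.25 ± 0.11), Slc22a7 (−0.17 ± 0.10), Abcg5 (−0.19 ± 0.11), Abcb4 (−0.20 ± 0.13), Stat5a (−0.29 ± 0.13), Ghr (0.12 ± 0.08), Msn (0.17 ± 0.10), Ezr (0.12 ± 0.15), Gclc (0.22 ± 0.10) and Nqo1 (0.25 ± 0.13). The adjusted p-values in males were at least 0.829.

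Ratios of related genes within a library do not depend on library size, apart from the 1 added to each count. That 1 weighs most on the scarce Abcb1b, with 3 to 44 counts per library. In all, 3 ratios were compared over the 4 pairs of groups in 12 exact permutation tests. The log2 ratio of Abcb1b to Abcb1a was −5.77 ± 1.00 in PCB 52 females, ranging from −6.91 to −4.42, and −4.33 ± 0.33 in sham females, ranging from −4.67 to −3.85. The female groups overlapped, with a difference of −1.45 (two-sided exact p = 0.00866, adjusted over the 12 tests 0.0346). This ratio was chosen with the Abcb1b value known, so it is no independent evidence of its direction. The adjusted p rose to between 0.0519 and 0.104 when any single sham female was left out. It stayed under 0.05 in the 6 fits that left out a PCB 52 female. Without animals 13 to 16 the difference was −1.95 (adjusted exact p = 0.0286). In males the same ratio was −4.46 ± 0.87 with PCB 52 and −4.39 ± 0.91 in sham (exact p = 0.892). The difference of PCB 52 females from PCB 52 males was −1.31 (exact p = 0.0390, adjusted 0.117). It passed, at an adjusted exact p of 0.0455, without PCB 52 female 1 or without PCB 52 male 5.

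The log2 ratio of basolateral Abcc3 to canalicular Abcc2 was −5.43 ± 0.38 in PCB 52 females and −7.31 ± 0.58 in PCB 52 males. It was −5.09 ± 0.40 in sham females and −7.07 ± 0.57 in sham males. Female and male values did not overlap, and the differences were 1.88 in PCB 52 animals and 1.99 in sham animals. Both had a two-sided exact p of 0.00216, the smallest that 6 against 6 can give, and an adjusted p of 0.0130. Without animals 13 to 16, with 4 animals on each side, the PCB 52 difference was 1.63 (adjusted exact p = 0.114); the smallest exact p of that smaller design is 0.0286 before adjustment, so its miss says nothing about stability. The ratio of Slco1a4 to Slco1a1 did not pass in any of its 4 comparisons, with adjusted exact p-values of at least 0.605. Its group means lay between −0.52 and −0.38.

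**Figure D4:**
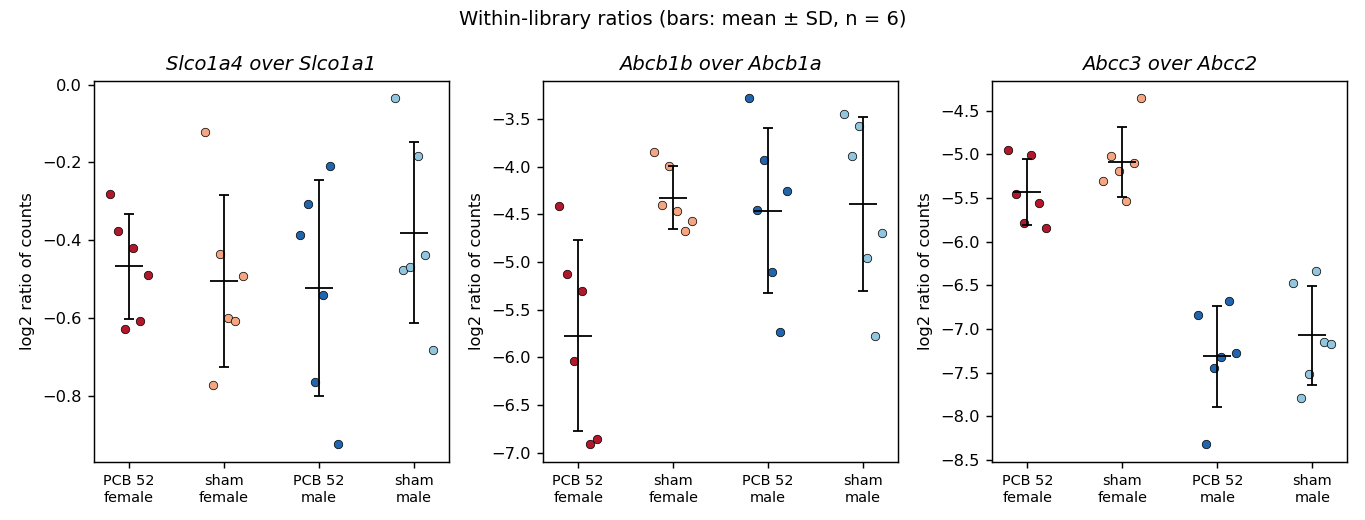
log2 ratio of counts (1 added to each count) within a library for Slco1a4 over Slco1a1, Abcb1b over Abcb1a and Abcc3 over Abcc2, in PCB 52 females, sham females, PCB 52 males and sham males; points are animals and bars are mean ± SD (n = 6). Abcb1b over Abcb1a is lowest in PCB 52 females (−5.77), and Abcc3 over Abcc2 separates females from males in both exposures.

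Slco1a1 and Slco1a4 varied together among animals of the same group. On log2 CPM with each group's mean removed, Pearson r was 0.816 over 24 animals (permutation within groups, p = 3.00e-05, adjusted over 11 relations 1.65e-04). Spearman rho was 0.774 (permutation p = 1.90e-04, adjusted 0.00104). Without the 2 animals farthest from the median of Slco1a1 r was 0.768, and without animals 13 to 16 it was 0.696. The share of all genes that went with Slco1a1 as closely is not given here. Both genes had a positive r with the leading component of variation within groups, 0.838 for Slco1a1 and 0.517 for Slco1a4. These relations were chosen after the data had been seen. The permutations treated animals as independent, but animals with consecutive numbers often had similar values. Centred Slco1a1 was 0.33 and 0.41 in animals 13 and 14 and −0.40 and −0.33 in animals 19 and 20. In animals 23 and 24 it was 0.12 and −0.03. The p-values over 24 animals may therefore be too small. The upstream sequences of Slco1a1 and Slco1a4 were the most alike of the 28 pairs among the 8 matched promoters, which is why they are shown. A link between this likeness and the correlation was not tested. In a global alignment 176 of 235 aligned bases were identical, 74.9%, against a median of 58.5% over all pairs and 65.9% for Abcb1a with Abcb1b. The 250 bases lie at chr4:176681993-176682242 (minus strand) for Slco1a1 and chr4:176495847-176496096 (minus strand) for Slco1a4, in GRCr8 from RefSeq. Capitals mark runs of at least 6 aligned identical bases, 9 runs holding 73 bases.
Slco1a1: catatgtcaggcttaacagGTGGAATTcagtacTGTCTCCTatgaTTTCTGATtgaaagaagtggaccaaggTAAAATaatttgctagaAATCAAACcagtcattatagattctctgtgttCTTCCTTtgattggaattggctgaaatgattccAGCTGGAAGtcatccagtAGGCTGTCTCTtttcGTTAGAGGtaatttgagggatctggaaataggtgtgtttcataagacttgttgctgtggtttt
Slco1a4: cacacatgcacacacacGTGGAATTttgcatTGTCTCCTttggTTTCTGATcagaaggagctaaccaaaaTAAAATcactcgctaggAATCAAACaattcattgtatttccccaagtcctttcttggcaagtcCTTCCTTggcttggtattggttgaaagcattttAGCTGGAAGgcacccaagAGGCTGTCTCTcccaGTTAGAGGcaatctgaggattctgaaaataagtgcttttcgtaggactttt
Counts of such related genes can share reads where their transcripts are alike, and the counting rule is not given in the sources used here; its part in this relation was not tested.

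Slco1a1 also followed the leading component of variation within groups, scored in each sex with weights from the other sex over all genes tested. Slco1a1 was itself among those genes. The sign of the component is arbitrary and was set so that Slco1a1 had a positive weight in females. Pearson r of Slco1a1 with that score was 0.838 over 24 animals (permutation p = 1e-05, the smallest these permutations can give, adjusted 1.10e-04). Spearman rho was 0.800, and r was 0.766 without animals 13 to 16. These permutations too treated animals as independent, so their p-values may be too small. With only the mean of each sex removed, scores were −3.11 and −3.51 in animals 17 and 18. They were −6.23 and −6.61 in animals 19 and 20, but −1.88 and −5.59 in animals 3 and 4. The share of all genes that followed this score as closely is not given here. For Slco1b2 r was 0.592 (permutation, adjusted p = 0.0190) and 0.460 without animals 13 to 16. Slco1a4 had r of 0.517 (permutation, adjusted p = 0.0629) and 0.233 without those animals. Spearman rho was 0.512 for Slco1b2 (permutation, adjusted p = 0.0424) and 0.516 for Slco1a4 (permutation, adjusted p = 0.0478). For the pumps r was 0.339 for Abcc2, 0.232 for Abcc3, −0.0949 for Abcb1a and 0.290 for Abcb1b, none past the adjustment. Without animals 13 to 16 these were 0.357 for Abcc2, 0.242 for Abcc3, 0.229 for Abcb1a and 0.0326 for Abcb1b, and differences between the correlations were not tested. The component held 16.7% of the variance within groups in females and 19.8% in males. Its group means were 2.57 in PCB 52 females and −2.57 in sham females, and 2.12 in PCB 52 males and −2.12 in sham males; its part in the exposure values of the carriers was not tested.

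**Figure D5:**
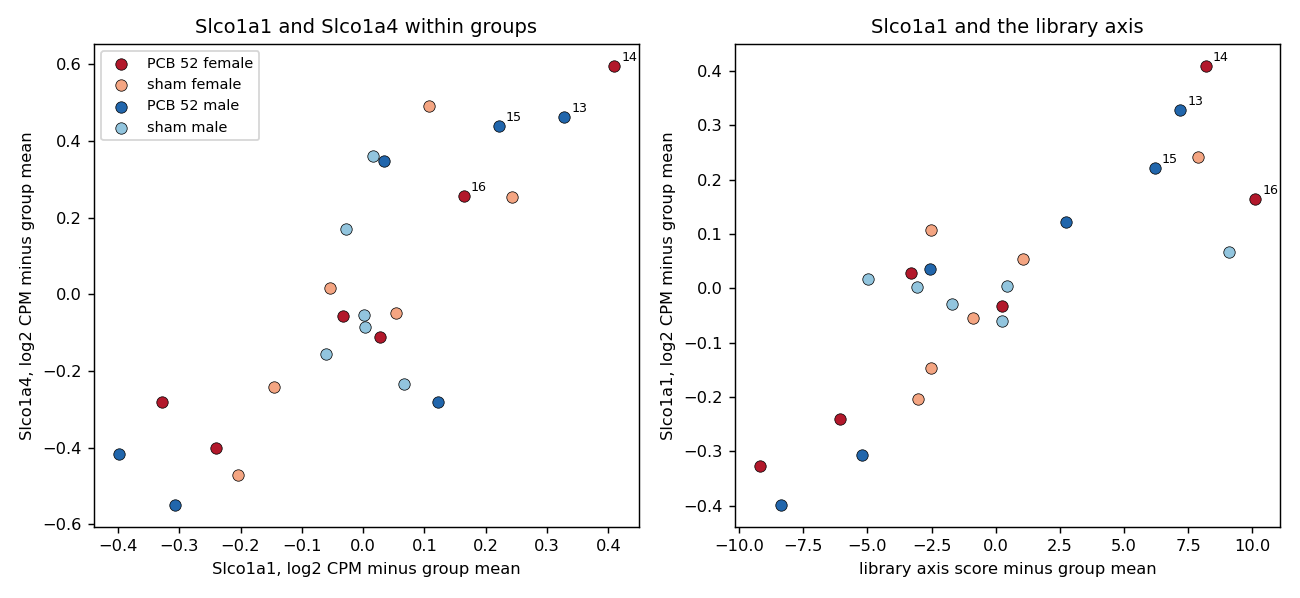
Left, log2 CPM of Slco1a4 against Slco1a1, each with its group mean removed; right, Slco1a1 against the library axis score, likewise centred. Points are animals coloured by group and numbers mark animals 13 to 16. Both panels rise together, with r = 0.816 on the left and 0.838 on the right. The sign of the axis score was set by a positive weight of Slco1a1.

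No positive relation was seen for the other pairs of related genes. In males Slc22a8 and Ust5r had, within groups, a Pearson r of −0.560 over 12 animals (permutation p = 0.0302, adjusted 0.0665) and Spearman rho of −0.783 (permutation p = 0.00794, adjusted 0.0291). Without the 2 animals farthest from the median of Slc22a8 r was −0.787, and without animals 13 and 15 it was −0.599. For Abcc2 with Abcc3 r was −0.252, and for Abcb1a with Abcb1b −0.196, over 24 animals each (adjusted permutation p = 0.364 and 0.440).

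For each transporter the 3 named genes with the most similar profile over the 24 libraries were found by the root mean square difference of centred log2 CPM, among 10476 genes. Slc22a8 was nearest to Mup4l1 (0.408 log2 units, beside a spread of 5.11 for Slc22a8 itself), Sult1e1 and Cyp2c13, all at most 0.775 CPM on average in females and at least 394 CPM in males. Ust5r was nearest to Cyp3a2 (0.630), Acnat2 and the Y-linked Ddx3y. Abcc3 was nearest to Plaat3 (0.425), Tsx and Cyp2c7. Plaat3 averaged 134 CPM in PCB 52 females, 142 CPM in sham females, 20.9 CPM in PCB 52 males and 20.9 CPM in sham males. Abcb1a was nearest to Mttp (0.273), Adh1c and Plbd1, and Abcc2 to Enpep (0.206), Fyco1 and Lpgat1. Slco1b2 was nearest to Cald1 (0.136), Rnf13 and Snx30, Slco1a1 to Cfhr4 (0.110), Fyttd1 and Pros1, and Slco1a4 to Gas2 (0.234), Hsf2 and Sult1c2a. Abcb1b had the least similar neighbours relative to its own spread of 0.836, with Nrbf2 at 0.622, Aspg at 0.679 and Camk2d at 0.679. Sharing a profile over 4 groups that differ mainly by sex is a description of these libraries.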

How the data were processed

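Liver RNA of 24 rats was read as 1 library per animal, without pooling, and samples were grouped by their labels. Per the labels, the authors deposited raw gene counts in 1 table for each sex, and per the submitters' processing notes they used FastQC, HISAT2 and the rn6 build. How reads were assigned to genes, with which strand setting and annotation, is not given in the sources used here; the labels' protocols name both poly(A) capture and rRNA removal. Of 15319 Entrez identifiers 15230 matched a symbol in the RefSeq table of GRCr8. That build is not the authors' build, so it was used for names, gene order and promoter sequence only.

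Counts were tested with edgeR 4.0.16 (TMM, filterByExpr with minimum count 10 and minimum total 15, robust quasi-likelihood test) and adjusted by Benjamini-Hochberg over all genes tested, at 0.05. Exposure was tested within each sex; sex contrasts, the difference in response and the average came from 1 fit of 24 libraries. The script was tested on simulated counts. CPM used TMM factors of all 24 libraries. Ratios added 1 count and were tested by exact permutation, and promoters were searched over 250 upstream bases. The members, the related lists and the rule for named genes (all 9 members, up to 6 called genes per list or the 2 with the smallest p, and 3 nearest profiles) were chosen with earlier results of these data known. Some genes of the related lists and some motifs are not reported here. Alternatives were median-of-ratios factors, other filters, DESeq2 1.42.0, limma-voom 3.58.1, a fit that is not robust, 1 surrogate variable, a threshold of 0.10 and libraries left out. The labels name animals but no batch, and replicate counts differed by more than sampling noise (lowest chi-square per degree of freedom 6.68). Counting intervals are exact at 95%.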

Additional observations from a re-analysis of the deposited data

Results flagged for a closer look

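Of 36 sets of 6 values, one for each transporter and group, 4 had a value set apart from the other 5 by the gap criterion of Dixon. Chance gives about 1 in 20 for continuous values; that share does not apply to the 2 female sets of Slc22a8, where any single library with a count meets the criterion. Abcc3 was 50.8 CPM in sham female 6, and the other sham females lay between 25.5 and 31.1 CPM. Slc22a8 was 261 CPM in sham male 4, and the other sham males lay between 329 and 356 CPM. Slc22a8 was 0.256 CPM (2 counts) in PCB 52 female 2 and 0.125 CPM (1 count) in sham female 5, with 0 counts in the other females. No explanation was tested for these values.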

How the results depend on the processing

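The number of transporters called stayed within 1.5 times its value under every alternative run: 6 to 7 between the sexes in PCB 52 animals, 7 to 9 in sham animals, and 0 in each exposure comparison. Exposure values (log2) that did not pass turned sign as follows, and the cause was not tested. With 1 surrogate variable the female values were −0.16 for Abcc3, −0.077 for Slco1a1 and −0.069 for Slco1a4, the male values −0.054 for Slco1a4 and −0.026 for Ust5r, and the averages −0.010 for Slco1a1 and −0.083 for Slco1a4. Without animals 13 to 16 the female values were −0.074 for Abcc3, −0.029 for Slco1a1, −0.087 for Slco1a4 and −0.031 for the ratio of Slco1a4 to Slco1a1. Male values were then −0.093 for Abcb1b, −0.18 for Slco1a4, −0.012 for Slco1b2 and −0.053 for Ust5r, the average −0.13 for Slco1a4 and the response difference −0.027 for Abcc3. With limma-voom the male values were −0.0032 for Abcb1b and −0.031 for Slco1a4, and the Abcc3 average 0.031. Leaving out 1 library at a time turned the sign within these ranges. In male exposure they were −0.17 to 0.30 for Abcb1b, −0.18 to 0.037 for Abcc3, −0.033 to 0.15 for Slco1a4, −0.035 to 0.11 for Ust5r and −0.35 to 0.18 for Abcb1b over Abcb1a. In female exposure they were −0.054 to 0.23 for Abcc3 and −0.015 to 0.11 for Slco1a4 over Slco1a1, and in the average −0.024 to 0.10 for Abcb1a and −0.064 to 0.080 for Abcc3. For the response difference they were −0.15 to 0.013 for Slco1a1 and −0.048 to 0.21 for Slco1a4. Between the sexes they were −0.32 to 0.14 for Abcb1b and −0.025 to 0.12 for Slco1a4 over Slco1a1 in PCB 52 animals, and −0.21 to 0.25 for Abcb1b over Abcb1a in sham animals. A replicate block of consecutive animal numbers, a pairing the labels do not give, called 9 in sham animals and 7 in PCB 52 animals, adding Slco1a1 (−0.28, adjusted p = 0.00243) and Slco1a4 (−0.40, 0.00832) in sham animals by edgeR. No paired analysis was possible for exposure because exposed and sham animals share no numbers, and no such fit was made for the average. Abcb1b rested on 3 to 44 counts per library, which limits its precision.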
